A study of Mus musculus with 8 samples.

Results

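Tbx4, Pitx1, Foxf1, Vcam1, Plac1 and Spin2c, 6 genes of the allantois and extraembryonic mesoderm, were followed across single-cell libraries of mouse chimaeras. They were taken by gene name from the 55422 features of the count matrices, and each name matched 1 feature. The Tet-TKO cells descended from 1 line of Tet1, Tet2 and Tet3 triple-knockout embryonic stem cells of mixed C57BL/6J-129Sv background that carried an H2B-tdTomato reporter under the ubiquitous CAG promoter and were injected into C57BL/6J host embryos. Chimaeras were collected at E7.5 and E8.5, pooled, dissociated and sorted by tdTomato, the negative cells being the WT host, and profiled with 10x 3' v3 chemistry. The later stage gave 4 Tet-TKO and 2 WT host libraries, the earlier stage 1 of each genotype. Knockout, strain background, reporter and injected origin were the same samples and cannot be told apart. Nothing in the labels ties a library to a separate pool of embryos, so the spread between libraries may be technical.

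The allantois is the extraembryonic mesodermal bud that grows out of the posterior end of the embryo, fuses with the chorion and forms the umbilical vessels. Tbx4 and Pitx1 encode a T-box and a paired-like homeodomain transcription factor that are active in the allantois and, later, in the hindlimb field. Foxf1 encodes a forkhead factor of lateral plate and extraembryonic mesoderm that is required for a normal allantois and yolk sac. VCAM1 is the cell surface protein on allantois cells that binds α4 integrin on the chorion, and allantoises without it often fail to fuse. Plac1 is an X-linked gene best known from the placenta, and Spin2c is an X-linked member of the Spindlin family of histone readers. TET enzymes oxidise methylated cytosine, mainly in CG dinucleotides, as a step towards its removal.

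In mouse assembly GRCm38 the genes lay at chr11:85886422-85916097 (Tbx4, plus strand), chr13:55825051-55836192 (Pitx1, minus strand), chr8:121084386-121088144 (Foxf1, plus strand), chr3:116109949-116129688 (Vcam1, minus strand), chrX:53069995-53240111 (Plac1, minus strand) and chrX:153832225-153834243 (Spin2c, plus strand), all annotated as protein coding. RefSeq promoter windows of GRCm38.p6, from 250 bases before to 50 after a transcript start, were at hand for 3 of the 6 genes. They are shown with CG dinucleotides, the main place of the methylated cytosine that TET enzymes oxidise, in capitals. In the cell types it profiled for methylation, the study reported TET-dependent demethylation at distal regulatory elements and negligible effects at promoters. The Tbx4 window spans chr11:85896515-85896814 on the plus strand and lies inside the gene as annotated, downstream of its 5′ end. The Plac1 windows lie on the minus strand at chrX:53240061-53240360 (start 1, at the 5′ end of the gene) and chrX:53114356-53114655 (start 2, inside it), and the Spin2c window spans chrX:153832043-153832342 on the plus strand.
Tbx4: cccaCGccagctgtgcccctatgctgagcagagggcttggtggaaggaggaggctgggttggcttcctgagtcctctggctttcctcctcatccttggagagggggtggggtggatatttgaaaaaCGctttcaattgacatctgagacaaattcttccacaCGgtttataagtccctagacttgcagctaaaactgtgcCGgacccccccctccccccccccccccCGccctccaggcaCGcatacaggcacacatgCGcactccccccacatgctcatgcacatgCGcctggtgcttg
Plac1 start 1: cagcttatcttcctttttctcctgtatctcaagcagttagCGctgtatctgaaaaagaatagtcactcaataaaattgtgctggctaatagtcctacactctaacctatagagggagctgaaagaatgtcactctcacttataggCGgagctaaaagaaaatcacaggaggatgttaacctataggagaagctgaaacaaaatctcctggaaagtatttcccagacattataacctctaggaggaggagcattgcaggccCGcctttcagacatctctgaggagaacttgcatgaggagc
Plac1 start 2: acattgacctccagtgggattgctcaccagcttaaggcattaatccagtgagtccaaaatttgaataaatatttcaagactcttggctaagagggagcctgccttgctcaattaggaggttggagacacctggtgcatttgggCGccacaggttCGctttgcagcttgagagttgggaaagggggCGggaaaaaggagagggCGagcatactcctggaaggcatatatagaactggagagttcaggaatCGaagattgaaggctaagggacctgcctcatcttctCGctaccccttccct
Spin2c: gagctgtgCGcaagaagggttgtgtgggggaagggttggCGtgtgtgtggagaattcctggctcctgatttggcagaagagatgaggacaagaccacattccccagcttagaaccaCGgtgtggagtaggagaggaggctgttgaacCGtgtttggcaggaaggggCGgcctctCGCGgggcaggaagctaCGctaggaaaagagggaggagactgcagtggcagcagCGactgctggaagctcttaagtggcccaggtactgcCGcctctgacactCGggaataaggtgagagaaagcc
The windows hold 8 CG in Tbx4, 3 and 6 in Plac1 and 11 in Spin2c. Over 32851 RefSeq promoter windows of 300 bases the median was 7 CG, with quartiles of 3 and 20, and 94.6% held at least 1 CG. All 4 windows therefore lay at or between the quartiles. The Tbx4 window alone of the 4 held the letters TATAAA on either strand, as did 13.6% of all promoters. Methylation was not measured in these libraries.

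Values are UMI counts, 1 per captured transcript molecule, summed over the cells of a class in a library and scaled to CPM, the gene's share of that sum in counts per 1000000. The libraries held 65601218 to 136982886 UMIs and 1008 to 9545 cells after filtering. Tet-TKO libraries 3 and 4 of E8.5 stood apart, with 2302 and 1008 cells and medians of 40400.5 and 68931 UMIs per cell against 12178 to 18774 in the other 4 of that stage. The tdTomato transcript stood at 71.5 to 145 CPM in the Tet-TKO libraries and at 0.444 to 0.938 CPM in the WT host libraries. Xist, the RNA of the inactive X chromosome, stood at 3.29 to 10.7 CPM in Tet-TKO and 163 to 359 CPM in WT host libraries, so the X-linked Plac1 and Spin2c were compared between libraries that differed in Xist. No 2 libraries shared more than 0.404% of the cell barcodes of the smaller one.

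At E8.5, 37190 cells fell into 50 clusters, 4 groups of which took their names from marker lists that hold none of the 6 genes. The 6 genes were also left out of the clustering. Allantois-like cells were raised for the posterior Hox genes Hoxa10, Hoxa11, Hoxa11os and Hoxa13, which stood 3.29 to 3.64 log2 units above the other cells. Mesenchyme-like cells were raised for smooth muscle and matrix genes such as Acta2, Tagln, Postn and Col3a1. ExE (extraembryonic) mesoderm-like cells were raised for Hand1, Bmp4, Msx2 and Pmp22, and lateral plate mesoderm-like cells for Hand2, Osr1, Gata4, Gata5, Gata6 and Nr2f2. The allantois class held 1040, 1582, 202 and 80 cells of the Tet-TKO libraries 1 to 4 and 626 and 390 of the WT host libraries 1 and 2. The mesenchyme class held 504, 760, 168 and 65 Tet-TKO cells and 209 and 242 WT host cells. These 2 classes and the lateral plate were made up differently in the 2 genotypes, which bears on every comparison below. Cluster 0 held 42.7%, 27.6%, 3.96% and 2.5% of the allantois cells of the Tet-TKO libraries but 89.0% and 95.9% of those of the WT host libraries. Cluster 4 held 81.2 to 98.5% of the Tet-TKO mesenchyme cells and 29.7% and 5.79% of the WT host ones, most of which lay in cluster 31. In the lateral plate, cluster 30 held 41.3%, 34.2%, 28.7% and 19.4% of the Tet-TKO cells and 48.3% and 46.6% of the WT host cells, and cluster 17 the others. The ExE mesoderm class was a single cluster of 214 cells whose median UMI count was 0.267 of that of their own libraries. Its 66 WT host cells gave tdTomato at 20.8 and 34.8 CPM, against the label of the sort, so values from this class are weak.

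Allantois cells of the WT host expressed 5 of the 6 genes at the highest mean of any class. Over 32 classes with both WT host libraries, the allantois stood first for Tbx4 at 215 ± 8.65 CPM (SD, n = 2), for Pitx1 at 443 ± 33.8 CPM, for Plac1 at 274 ± 7.48 CPM and for Spin2c at 544 ± 25.1 CPM, and its libraries did not overlap with those of the second class for any of these 4. Vcam1 also had its highest mean there, at 55.1 ± 6.93 CPM, but overlapped with cardiomyocyte-like cells at 50.0 ± 13.0 CPM. Foxf1 was a broader mesodermal gene. It was highest in cluster 33, an unnamed cluster with Tcf21 and Hlx among its leading genes, at 296 ± 25.2 CPM, followed by cluster 16 at 268 ± 24.8 CPM, mesenchyme at 252 ± 18.3 CPM and allantois at 226 ± 24.2 CPM, each overlapping with its neighbour in that order. These levels are descriptions, since the genes were picked as genes of these classes.

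**Figure D1:**
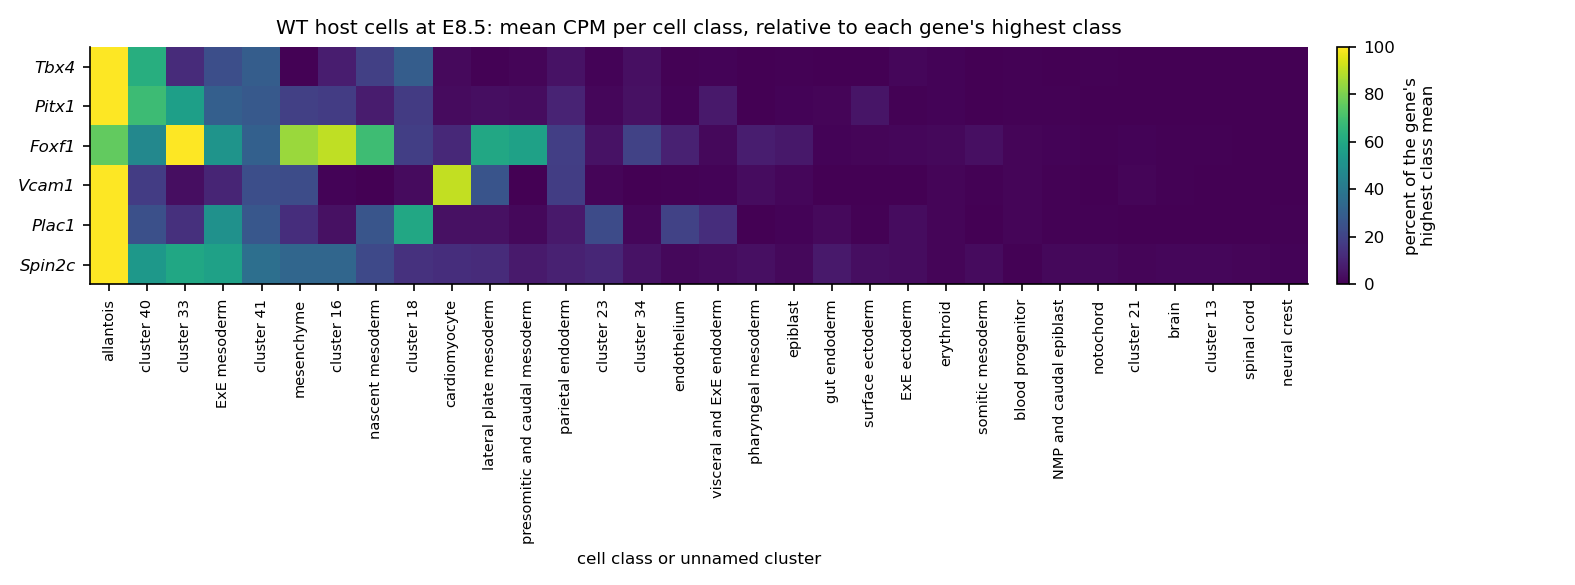
Mean level of each of the 6 genes in each WT host cell class at E8.5, as a percent of that gene's own highest class mean (colour), with genes in rows and the 32 classes in columns. The allantois column is at the top of the scale for every gene but Foxf1, whose level is spread over several mesodermal classes.

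Below the allantois the genes parted. Tbx4 was close to absent from mesenchyme, at 1.43 and 0.590 CPM in the 2 WT host libraries, while Pitx1 stood there at 67.9 and 100.01 CPM and Foxf1 at 265 and 239 CPM. Spin2c and Plac1 were also found there, and Vcam1 at a low level, with values given below. Mesenchyme thus carried the other genes of the set nearly without Tbx4. The second class for Tbx4 was cluster 40, which had Tbx4 and Tbx20 among its leading genes and few UMIs per cell, at 135 ± 42.7 CPM. Plac1 had its second level in cluster 18, a cluster led by vessel genes such as Gja4, Etv2 and Sox7, at 164 ± 4.32 CPM (n = 2), and endothelium was also among its first 8 classes at 53.8 ± 0.993 CPM. Lateral plate mesoderm held Foxf1 at 162 and 194 CPM, Vcam1 at 15.1 and 13.5 CPM and Tbx4 at 1.46 and 1.35 CPM, each from 5 UMIs.

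The order of classes in the Tet-TKO cells was similar at the top but not identical. Over 33 classes, Spin2c and Plac1 again had their highest means in the allantois, at 622 ± 67.6 and 216 ± 64.2 CPM (SD, n = 4). Tbx4 and Pitx1 came second there, at 171 ± 22.4 and 338 ± 17.5 CPM, behind cluster 40 at 189 ± 57.3 and 352 ± 152 CPM, with overlapping libraries. Vcam1 was highest in cardiomyocyte-like cells at 33.9 ± 14.6 CPM and second in the allantois at 19.3 ± 7.52 CPM, again with overlap. An unnamed cluster led by Hoxd9, Spin2c, Fendrr and Bmp4, cluster 14, held 953 Tet-TKO but 51 WT host cells. In its Tet-TKO cells Spin2c stood at 437 ± 101.9 CPM, Pitx1 at 200 ± 20.7 CPM and Foxf1 at 199 ± 26.0 CPM, with Vcam1 at 0.415 ± 0.191 CPM.

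Genes with the most similar pattern over the 32 WT host classes were sought among 11524 genes by Pearson's r of mean log2(CPM + 1), as a description of classes that share the same 2 libraries. Tbx4 ran with posterior Hox genes, Hoxa10 (0.94), Hoxa11os (0.93) and Hoxa11 (0.92), which are also markers of the allantois class. Foxf1 ran with Hand2 (0.95), Ppp1r14a (0.90) and Fendrr (0.90), the last a long noncoding RNA gene next to Foxf1. Pitx1 ran with Spin2c (0.90), Prdm6 (0.89) and Dlk1 (0.87), and Spin2c with Pitx1, Rgs5 (0.89) and Bmp4 (0.88). Vcam1 ran with Tbx20 (0.85), Gata5 (0.84) and Wnt2 (0.83), whose own highest classes were cluster 40, cardiomyocytes and lateral plate mesoderm. For Plac1 the 3 most similar genes were Dok4 (0.88), Smad6 (0.88) and Ppic (0.87).

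Single allantois cells mostly carried several of the genes at once. To compare libraries of unequal depth, each cell was thinned to 5000 UMIs, and shallower cells (0 to 12 per library in this class) were left out. At that depth Spin2c was seen in 85.5 to 91.1% of allantois cells of a library, Pitx1 in 73.7 to 84.8%, Plac1 in 40 to 69.9%, Tbx4 in 47.5 to 63.1%, Foxf1 in 43.8 to 66.2% and Vcam1 in 5 to 17.3%. Before thinning, at median depths of 13325 to 76984 UMIs, the shares were 96.1 to 100% for Spin2c, 94.5 to 98.8% for Pitx1, 83.8 to 96.2% for Plac1 and for Foxf1, 80.0 to 92.8% for Tbx4 and 16.2 to 29.2% for Vcam1. Brain-like cells, which should lack them and in which such UMIs gauge free RNA, showed Spin2c in 2.86 to 10.3%, Foxf1 in 0 to 5.13%, Pitx1 in 0 to 2.99%, Tbx4 in 0 to 2.56% and Vcam1 and Plac1 in 0 to 1.47%. At least 4 of the 6 genes were found in 61.7% and 63.9% of WT host allantois cells and in 46.7%, 53.1%, 45.0% and 36.2% of Tet-TKO ones. All 4 Tet-TKO libraries lay below both WT host libraries. In the WT host, Tbx4 was seen about as often in allantois cells with Vcam1 (60.9% and 57.8%) as in those without it (64.0% and 61.3%). In Tet-TKO libraries 1 to 4 it was seen in 57.1%, 47.6%, 58.3% and 100% of cells with Vcam1, which numbered 63, 189, 12 and 4. Without Vcam1 the shares were 50.6%, 49.7%, 59.5% and 56.6%.

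The first comparison asked whether the genes differed between Tet-TKO and WT host within the allantois class at E8.5. Tbx4 read 161, 144, 191 and 187 CPM in the Tet-TKO libraries, numbered 1 to 4, and the WT host pair read 221 and 209 CPM. Pitx1 read 319, 359, 345 and 329 CPM against 419 and 467 CPM. Foxf1 read 171, 196, 162 and 158 CPM against 209 and 243 CPM. For all 3 transcription factors every Tet-TKO library lay below every WT host library, by log2 differences of -0.35 (SE 0.11) for Tbx4, -0.40 (0.11) for Pitx1 and -0.40 (0.15) for Foxf1, with edgeR adjusted p of 0.191, 0.133 and 0.265. How many of all genes were separated in this way was not counted, here or in the comparisons below. Vcam1, the adhesion gene, read 15.6, 29.0, 20.8 and 11.6 CPM against 50.2 and 60.0 CPM, also without overlap, a log2 difference of -1.49 (SE 0.32) with an adjusted p of 0.0558. Plac1 read 244, 291, 179 and 148 CPM against 269 and 279 CPM, and Spin2c 623, 529, 652 and 686 CPM against 562 and 526 CPM. Both overlapped between genotypes, at log2 differences of -0.34 (SE 0.28, adjusted p 0.607) and 0.18 (SE 0.12, adjusted p 0.527). Plac1 moved to -0.54 without Tet-TKO library 2 and to -0.18 without Tet-TKO library 4, and Spin2c to 0.11 without WT host library 2.

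With the study's thresholds, an adjusted p of at most 0.01 and an absolute log2 difference of at least 1, edgeR's quasi-likelihood test called 0 of the 6 genes in the allantois, where it called 0.674% of the 13061 genes tested. At an unadjusted p under 0.05 there were 4 of the 6, Tbx4, Pitx1, Foxf1 and Vcam1, beside 14.6% of all genes, and DESeq2 called 1, Vcam1, at an adjusted p of 0.000271, beside 1.81% of all genes. The median log2 difference was -0.38 over the 6 genes and 0.01 over all genes tested. Erythroid marker RNA moved with the genotype in this class, its 7 genes summing to 6.14 to 35.4 CPM in Tet-TKO and to 598 and 1277 CPM in WT host libraries, and its part in the result was not tested. With other choices of cells 2 of the 3 transcription factors changed sign, Pitx1 to 0.047 without correction between libraries and 0.043 with all variable genes, and Foxf1 to 0.14 without correction and to 0.16 within cluster 0 alone. Leaving out Tet-TKO library 2 brought Vcam1 to -1.80 and past the threshold. Clustering without correction between libraries, or with all variable genes, the 6 among them, gave allantois classes of other cells in which Vcam1 was higher in Tet-TKO, at 2.13 and 1.35, from 72 and 16 WT host cells in the one and 76 and 20 in the other, and was not called.

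**Figure D2:**
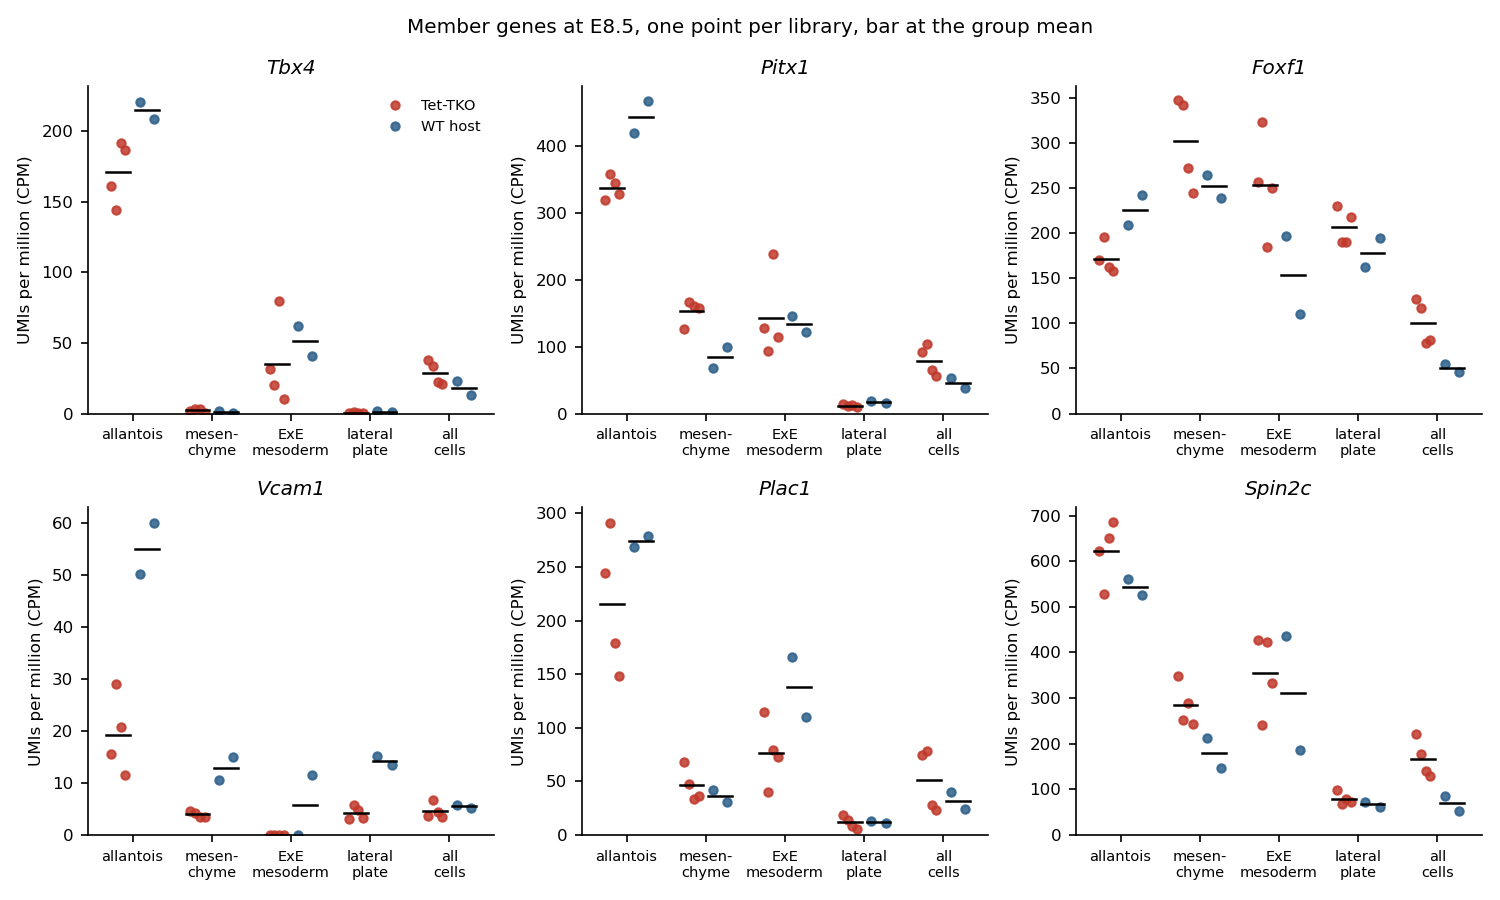
CPM of each gene at E8.5 (vertical axis, from 0, own scale per panel) in 4 cell classes and in all cells, 1 point per library (red, 4 Tet-TKO; blue, 2 WT host) with a bar at the group mean. In the allantois the Tet-TKO points of Tbx4, Pitx1, Foxf1 and Vcam1 all lie below the WT host points, and in the mesenchyme those of Pitx1 and Spin2c all lie above.

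In the mesenchyme class the picture differed from gene to gene. Pitx1 was higher in Tet-TKO, at 126, 166, 161 and 157 CPM against 67.9 and 100.01 CPM. Spin2c read 349, 253, 290 and 244 CPM against 212 and 146 CPM, and Vcam1 4.66, 4.25, 3.43 and 3.52 CPM against 10.6 and 15.05 CPM. In all 3 the genotypes did not overlap, Pitx1 and Spin2c being higher and Vcam1 lower in Tet-TKO. The log2 differences were 0.81 (SE 0.17, edgeR adjusted p 0.0425) for Pitx1, 0.61 (SE 0.23, adjusted p 0.236) for Spin2c and -1.70 (SE 0.27, adjusted p 0.0119) for Vcam1. Foxf1, at 348, 342, 273 and 245 CPM against 265 and 239 CPM, overlapped, with a log2 difference of 0.22 (SE 0.21, adjusted p 0.667), and so did Plac1, at 68.1, 48.0, 33.8 and 36.2 CPM against 41.8 and 30.4 CPM, with 0.34 (SE 0.34, adjusted p 0.678). Without WT host library 1 or 2 the Spin2c value was 0.95 and 0.33, that of Plac1 0.63 and 0.091, and that of Foxf1 0.33 and 0.10. Tbx4 stayed between 0.470 and 3.28 CPM in every library. Again edgeR called 0 of the 6, beside 0.939% of all genes in this class, with 3 of the 6 at an unadjusted p under 0.05, beside 16.4%. DESeq2 called 1, Vcam1 (adjusted p 0.000479), beside 2.49% of all genes. Without Tet-TKO library 1 edgeR called Vcam1 too, at -1.82. Cardiomyocyte markers summed to 76.7 to 134 CPM in Tet-TKO and 374 and 438 CPM in WT host mesenchyme, and the mesenchyme markers themselves to 2287 to 3294 CPM and 5177 and 7230 CPM. Their part in the result was not tested.

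The opposite signs of Pitx1 in the 2 classes were tested directly, by the interaction of class and genotype with library as a block. The Tet-TKO to WT host ratio of Pitx1 was higher in the mesenchyme than in the allantois by 1.22 log2 units (SE 0.11), which edgeR called at an adjusted p of 0.000188, where 0.79% of 13421 genes were called. The 5 other genes were not called in that test, in which 5 of the 6, all but Vcam1, had an unadjusted p under 0.05, beside 16.8% of all genes. Among these 5 was Tbx4, which was close to absent from the mesenchyme in both genotypes, so its part of that count is weak. Foxf1 gave 0.60 (adjusted p 0.0153) and Vcam1, lower in Tet-TKO in both classes, -0.20 (adjusted p 0.790). Clustered without correction between libraries, Vcam1 gave -3.58 over 4 libraries and was called (adjusted p 3.39e-07), from the small WT host allantois class described above. Taken cluster by cluster, Pitx1 in Tet-TKO and WT host stood at 402 (95% Poisson interval 391.9 to 412) and 450 (439 to 460) CPM in allantois cluster 0, and at 287 and 266 CPM in allantois cluster 6. In the mesenchyme it stood at 156 (152 to 161) and 80.1 (65.3 to 97.3) CPM in cluster 4, and at 96.4 (85.8 to 108) and 84.5 (77.1 to 92.5) CPM in cluster 31. These pooled values cover counting error only. The wide gap between genotypes was in cluster 4, which held 76 WT host cells. Compared only within the clusters with most WT host cells, 0 and 31, the Pitx1 difference between the classes was 0.50 and was not called, and with other clusterings of the cells, without correction between libraries or with all variable genes, the 6 among them, in the clustering, it was 0.55 and 0.84 and was not called either.

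**Figure D3:**
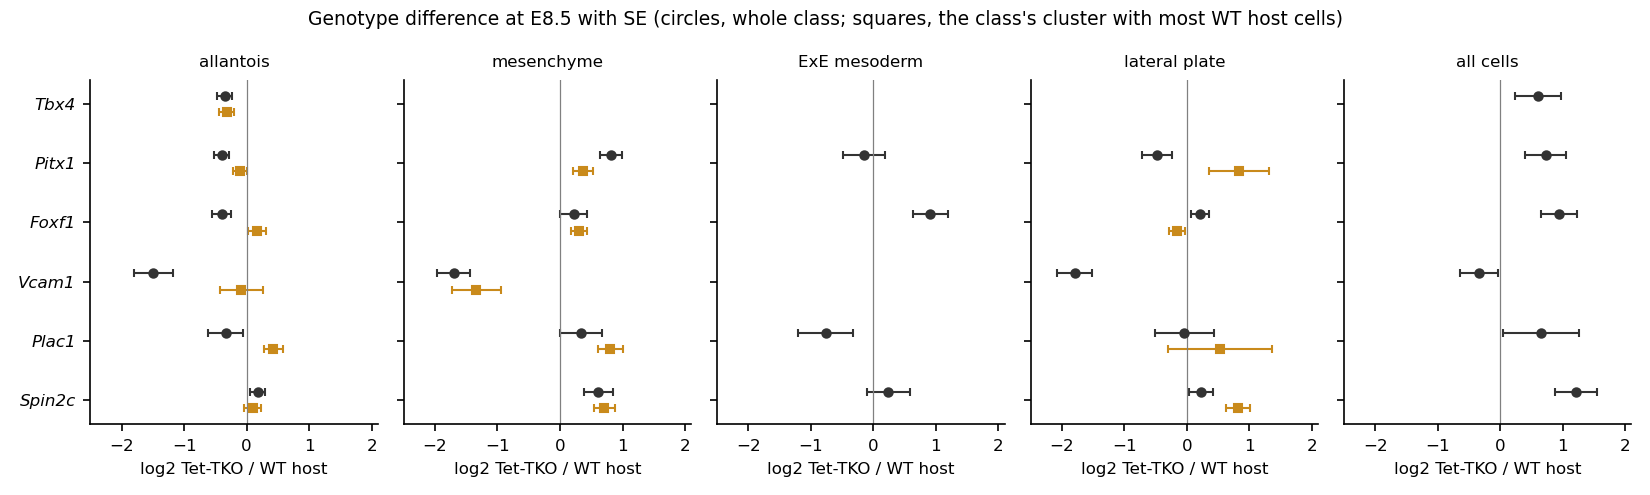
Log2 ratio of Tet-TKO to WT host at E8.5 (horizontal axis) with its standard error, for each gene (rows) in 4 cell classes and in all cells. Circles are the whole class and squares the 1 cluster of it with most WT host cells. For Vcam1 in the allantois the circle lies at -1.49 and the square near 0.

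Vcam1 was also read cluster by cluster within the allantois. In cluster 0 its Tet-TKO libraries 1 and 2, the only ones with at least 10 cells there, read 30.3 and 80.7 CPM and the WT host libraries 56.3 and 61.9 CPM, and the log2 difference in that cluster was -0.08 (edgeR adjusted p 0.920). In allantois cluster 6, which held 39.0 to 55.4% of the Tet-TKO allantois cells and 7.67% and 2.82% of the WT host ones, pooled Vcam1 was 5.597 CPM (4.78 to 6.52) in Tet-TKO and 0.938 CPM (0.0238 to 5.23, from 1 UMI) in WT host cells. Cluster 28 read 27.0 CPM in Tet-TKO and 18.4 CPM (5.01 to 47.1, from 4 UMIs) in 17 WT host cells, and cluster 43 read 5.33 CPM and 8.44 CPM (0.214 to 47.0, from 1 UMI) in 9 WT host cells. Cluster 0 gave 99.2% and 99.4% of the Vcam1 UMIs of the WT host allantois class, and 79.9%, 70.4%, 24.1% and 2.78% in Tet-TKO libraries 1 to 4. In libraries 3 and 4, with 8 and 2 cells in cluster 0, most Vcam1 UMIs came from cluster 28, at 54.4% and 66.7%. Whether Tet-TKO cells lose Vcam1 or are less often in a Vcam1-high state cannot be told apart here, and Vcam1 was among the leading genes of cluster 0 although it was kept out of the clustering.

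Lateral plate and mesenchyme clusters gave another reading. In mesenchyme cluster 31 Vcam1 stood at 5.50 CPM (3.20 to 8.81) in 158 Tet-TKO cells and 14.98 CPM (11.9 to 18.5) in 375 WT host cells, a log2 difference of -1.34 (edgeR adjusted p 0.0439), and in cluster 4 at 3.96 and 3.14 CPM. In lateral plate cluster 30, which had Wnt2 and Tnc among its leading genes, it stood at 12.8 CPM (10.3 to 15.6) and 28.8 CPM (23.4 to 35.1), a log2 difference of -1.17 (adjusted p 0.146), and in cluster 17 at 0.501 and 0.808 CPM. In clusters 30 and 31 Vcam1 was lower in Tet-TKO also within the cluster, though neither passed the threshold. The fit in cluster 31 held only Tet-TKO libraries 1 and 2, with 12 and 4 Vcam1 UMIs in 95 and 59 cells. Tet-TKO libraries 3 and 4 had 3 and 1 cells there. The WT host value of cluster 4 rests on 3 and 1 UMIs in 62 and 14 cells.

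**Figure D4:**
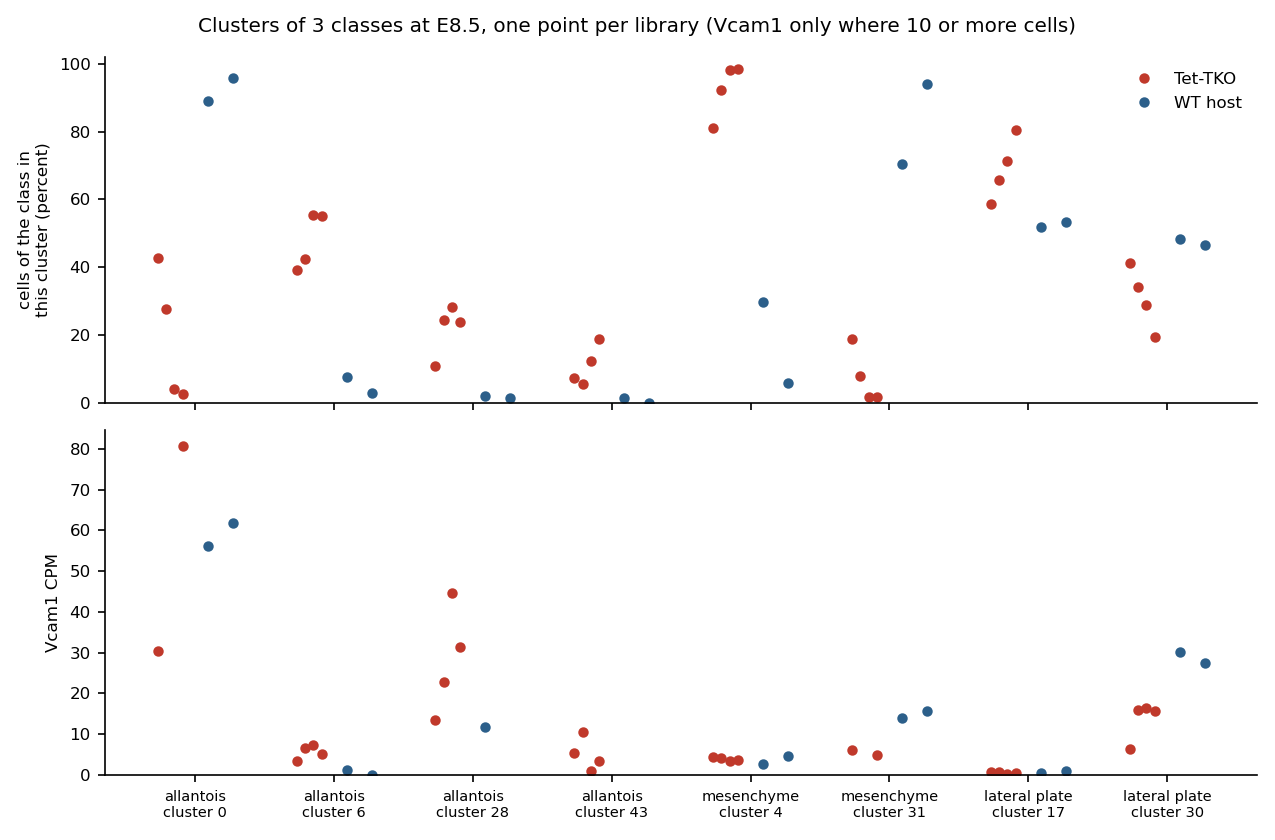
Upper panel, percent of the cells of a class that lie in each of its clusters at E8.5; lower panel, Vcam1 CPM in that cluster, 1 point per library (red, Tet-TKO; blue, WT host), leaving out libraries with under 10 cells there. Allantois cluster 0 holds 89.0 and 95.9% of the WT host allantois cells and has the highest mean Vcam1 level of the clusters shown in each genotype.

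Cells were also taken without any cluster, by a Tbx4 UMI after thinning to 5000 UMIs, leaving out 76 to 724 shallower cells per library. Such cells numbered 798, 998, 142 and 57 in the Tet-TKO libraries and 555 and 347 in the WT host libraries, and 70.1 to 78.9% of them were in the allantois class. Vcam1 was seen in 5.26%, 10.3%, 7.75% and 7.02% of the Tet-TKO and 11.4% and 14.7% of the WT host ones, and Pitx1 in 64.2%, 69.1%, 68.3% and 66.7% against 76.0% and 78.1%. Foxf1 was seen in 49.4%, 55.6%, 43.7% and 45.6% against 60.7% and 57.9%. For these 3 genes each Tet-TKO library lay below both WT host libraries in Tbx4-positive cells, as in the allantois class. Most Tbx4-positive cells belong to that class, so the 2 readings are not independent. Plac1, in 61.5%, 65.8%, 49.3% and 47.4% against 62.7% and 57.6%, and Spin2c, in 87.2%, 81.7%, 84.5% and 80.7% against 84.7% and 77.5%, overlapped. Among the other cells Vcam1 was seen in 0.906 to 1.78% in Tet-TKO and in 1.09 and 1.15% in WT host libraries. Pitx1 and Foxf1 ran the other way there, each Tet-TKO library lying above both WT host libraries, with Pitx1 in 11.8 to 19.0% against 7.76% and 6.11% and Foxf1 in 21.3 to 32.1% against 12.4% and 10.1%.

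In lateral plate mesoderm, Vcam1 read 3.04, 5.72, 4.80 and 3.33 CPM in Tet-TKO and 15.1 and 13.5 CPM in WT host libraries, without overlap. The log2 difference was -1.79 (SE 0.28), at an edgeR adjusted p of 0.0178. Cluster 30, with a smaller share of this class in every Tet-TKO library than in the WT host libraries, gave 85 to 98.1% of its Vcam1 UMIs. Foxf1 read 230, 191, 190 and 218 CPM against 162 and 194 CPM, with overlap and a log2 difference of 0.21 (SE 0.15, adjusted p 0.615). Pitx1 was lower in every Tet-TKO library, at 14.4, 11.9, 12.4 and 9.07 CPM against 18.0 and 15.1 CPM, while Spin2c, at 98.6, 68.6, 78.9 and 72.7 CPM against 72.5 and 62.5 CPM, and Plac1, at 5.90 to 18.5 CPM against 13.4 and 10.8 CPM, overlapped. Tbx4 did not pass the filter on low counts, and of the 5 genes tested edgeR called 0, beside 0.518% of all genes. Only Vcam1 had an unadjusted p under 0.05, as had 12.4% of all genes, and DESeq2 called it at an adjusted p of 0.000298, with 1.28% of all genes. Cardiomyocyte markers summed to 501 to 839 CPM in Tet-TKO and 1832 and 1490 CPM in WT host cells of this class, and cardiomyocyte-like cells carried Vcam1 at 16.5, 30.1, 37.7 and 51.4 CPM in Tet-TKO and 40.8 and 59.1 CPM in WT host libraries. The part of these markers in the Vcam1 result was not tested. Against the allantois, the genotype difference of Foxf1 in the lateral plate stood apart by 0.61 (edgeR adjusted p 0.0305) and that of Vcam1 by -0.24 (adjusted p 0.738). The Vcam1 value was -0.026 without WT host library 1 and -0.46 without WT host library 2. Of the 6 genes edgeR called 0 in that comparison, beside 0.268% of all genes, with 2, Tbx4 and Foxf1, at an unadjusted p under 0.05, beside 11.8%, and DESeq2 was not run on it. Tbx4 passed the low-count filter of that comparison only because the allantois counts were joined to those of the lateral plate. Its p therefore cannot show that its genotype difference differs between the 2 classes.

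In the ExE mesoderm class Foxf1 read 256, 323, 185 and 250 CPM in Tet-TKO and 197 and 110 CPM in WT host libraries, which overlapped at 1 library. The log2 difference was 0.91 (SE 0.29, edgeR adjusted p 0.261), and it was 0.46 without WT host library 2. None of the 4 genes tested was called, beside 0.381% of all genes, and 1 of them, Foxf1, had an unadjusted p under 0.05, beside 9.02%. DESeq2 called 0 of them and 0.381% of all genes. Tbx4, at 10.4 to 79.3 CPM in Tet-TKO and 62.3 and 40.6 CPM in the WT host pair, and Vcam1, with 2 UMIs in all in this class, did not pass the filter on low counts. Set against the allantois, where Foxf1 was lower in Tet-TKO, the genotype difference of Foxf1 was 1.32 log2 units higher (SE 0.30), and edgeR called it at an adjusted p of 0.00570, beside 0.186% of all genes. It was the only 1 of the 6 at an unadjusted p under 0.05, beside 6.71% of all genes. Tbx4 and Vcam1 passed the filter of that test only with the allantois counts joined. Leaving out Tet-TKO library 1, 2 or 4 ended the call, at 1.31, 1.17 and 1.25, and so did leaving out WT host library 2, at 0.81. At resolution 1, with all variable genes in the clustering and without doublets, no cluster took the name of ExE mesoderm, so the class was not found again. The unnamed clusters with the highest level of its markers, clusters 27, 7 and 35 of those runs, need not hold the same cells and gave 0.74, 0.054 and 1.12 against the allantois, none of them called. The WT host side of it is 38 UMIs in 66 cells whose tdTomato and depth stood apart.

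Summed over all cells of a library, the genes carry both expression and the makeup of the library. Spin2c read 222, 178, 140 and 130 CPM in Tet-TKO and 85.5 and 53.3 CPM in WT host libraries, Foxf1 127, 116, 78.4 and 81.4 CPM against 54.7 and 46.4 CPM, and Pitx1 91.7, 104, 65.1 and 55.8 CPM against 52.9 and 38.85 CPM. These 3 did not overlap and were higher in Tet-TKO. Their log2 differences were 1.21 (SE 0.33, edgeR adjusted p 0.0642), 0.93 (SE 0.29, adjusted p 0.0891) and 0.73 (SE 0.33, adjusted p 0.212). Tbx4, at 37.9, 33.5, 22.5 and 20.98 CPM against 23.0 and 13.4 CPM, overlapped, with 0.61 (SE 0.36, adjusted p 0.333), as did Plac1 with 0.66 (SE 0.61, adjusted p 0.529) and Vcam1, at 3.66, 6.67, 4.42 and 3.49 CPM against 5.81 and 5.20 CPM, with -0.34 (SE 0.30, adjusted p 0.512). Without WT host library 1 or 2 the Tbx4 value was 1.02 and 0.28, and that of Plac1 1.05 and 0.35. Allantois cells were 14.8%, 16.6%, 8.77% and 7.94% of the Tet-TKO cells and 7.58% and 4.32% of the WT host cells, and mesenchyme cells 6.45 to 7.96% and 2.53 and 2.68%. Within the allantois Tbx4, Pitx1 and Foxf1 pointed the other way. Over all cells edgeR called 0 of the 6, beside 2.64% of 21074 genes, with 2 of them, Foxf1 and Spin2c, at an unadjusted p under 0.05, a share near the 26.7% of all genes. DESeq2 called 1, Spin2c (adjusted p 0.00297), beside 6.84% of all genes. With the replicate number as a block, on 2 libraries of each genotype, edgeR called 5 of the 6, all but Vcam1, beside 1716 of 20238 genes.

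At E7.5, with 1 library per genotype and no test, the allantois class held 180 Tet-TKO and 141 WT host cells. Tbx4 stood at 44.7 CPM (95% Poisson interval 38.93 to 51.2) in Tet-TKO and 84.1 CPM (72.2 to 97.4) in the WT host, and Pitx1 at 58.2 CPM (51.5 to 65.4) and 197 CPM (179 to 217). Foxf1 stood at 218 CPM (205 to 232) and 304 CPM (281 to 329). These 3 transcription factor genes were lower in the Tet-TKO library at E7.5, with intervals that did not meet, as they were in every Tet-TKO library at E8.5. How many of all genes had intervals that did not meet was not counted. Taken without any cluster, Tbx4-positive cells were 1.09% of the thinned E7.5 cells in Tet-TKO and 0.871% in the WT host. Of these 52 and 58 cells, 48.1% and 82.8% lay in the allantois class. The class thus held a smaller part of the Tbx4-positive cells in the Tet-TKO library. The part of this in the lower levels of the 3 genes was not tested. Plac1 stood at 125 CPM (115 to 135) in Tet-TKO and 95.9 CPM (83.2 to 110) in the WT host, and Spin2c at 667 CPM (644 to 690) and 610 CPM (578 to 645). Plac1 was thus higher in Tet-TKO, also with intervals that did not meet, while those of Spin2c met. Vcam1 had 1 UMI in Tet-TKO allantois cells and 0 in those of the WT host, where 0 of 141 cells allows a share with a UMI of up to 2.58%. In both genotypes Vcam1, Tbx4, Pitx1 and Plac1 thus had lower levels in the allantois class at E7.5 than at E8.5, in different libraries, while Spin2c and Foxf1 were already at levels near or above those of E8.5.

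The mesenchyme class of E7.5 was raised for Acta2 and Tagln. Over both genotypes it held Postn at 1.70 CPM and Col3a1 at 0.636 CPM, against 152 and 259 CPM at E8.5. The cells of the 2 stages may therefore not be alike. In the E7.5 class (343 Tet-TKO and 356 WT host cells) Pitx1 stood at 60.6 CPM (55.6 to 66.0) in Tet-TKO and 87.4 CPM (79.6 to 95.7) in the WT host, the opposite order to E8.5. Spin2c stood at 708 CPM (691 to 726) and 425 CPM (408 to 443), the same order as at E8.5, and Foxf1 at 301 and 311 CPM. In ExE mesoderm-like cells, 439 in Tet-TKO and 63 in the WT host, Foxf1 stood at 218 CPM (209 to 228) and 226 CPM (195 to 259), Spin2c at 470 CPM (457 to 484) and 424 CPM (382 to 469), and Pitx1 at 12.5 CPM (10.4 to 14.9) and 28.5 CPM (18.4 to 42.0). Foxf1 intervals overlapped there and in the mesenchyme. No cluster took the name of lateral plate mesoderm at E7.5.

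**Figure D5:**
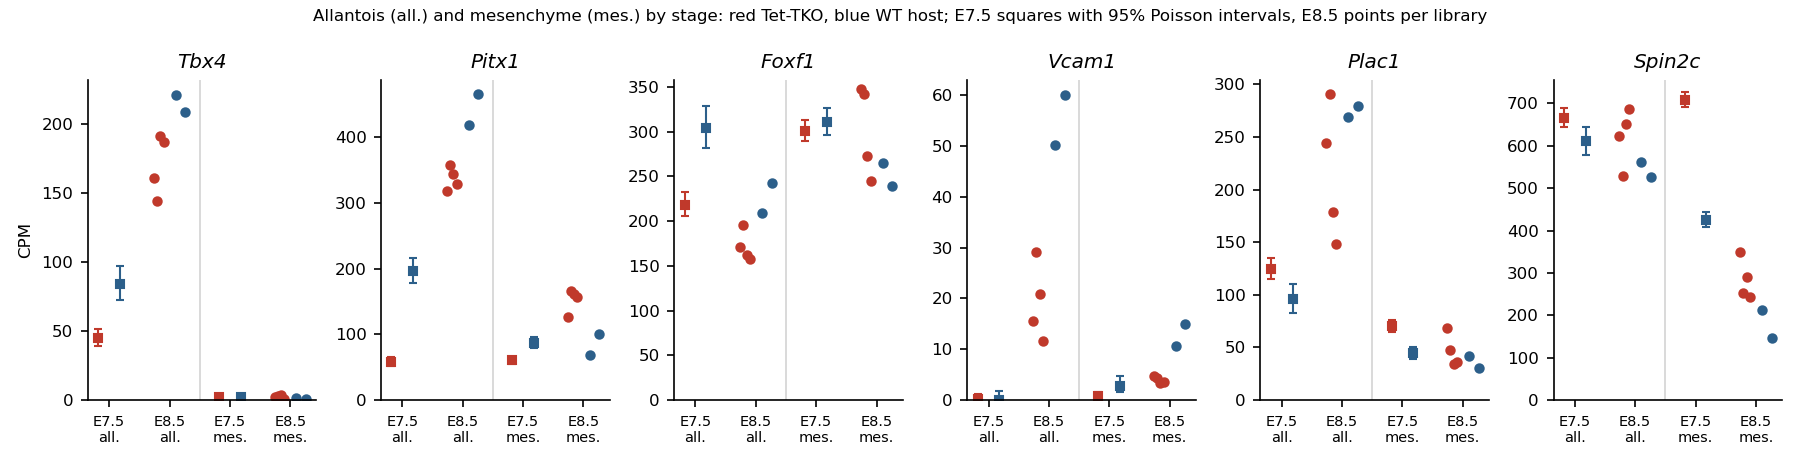
CPM of each gene (vertical axis, from 0, own scale per panel) in allantois-like (all.) and mesenchyme-like (mes.) cells at E7.5 and E8.5, with 1 point per library. Squares at E7.5 have 95% Poisson intervals that cover counting error only. Tbx4, Pitx1, Vcam1 and Plac1 are lower in the E7.5 than in the E8.5 allantois. Within the allantois, Tet-TKO points of Tbx4, Pitx1 and Foxf1 lie below WT host points at both stages.

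Genes that act with the 6 were counted from lists of 44 genes in all. In the allantois 36 of them passed the filter and 1 was called, beside the 0.674% of all genes given above. It was Cdx4, a caudal homeobox gene, at 16.3 ± 3.78 CPM in Tet-TKO (SD, n = 4) and 62.3 ± 6.86 CPM in the WT host (n = 2), a log2 difference of -1.97 (SE 0.19, edgeR adjusted p 0.00211). Of the partners of VCAM1, 3 were tested in the allantois and 0 called by edgeR. Itga4, the α4 integrin subunit, read 15.4 ± 3.95 CPM in Tet-TKO and 4.72 ± 0.0951 CPM in WT host allantois cells and 57.0 ± 4.87 and 29.9 ± 1.43 CPM in mesenchyme. It was not called in either and is named after its values were seen. The lists of BMP ligands, receptors and response genes (11 tested), of the hedgehog pathway (5 tested) and of relatives and neighbours of the 3 transcription factors (7 tested) also had 0 called in the allantois. In the mesenchyme 35 were tested and 1 was called, beside 0.939% of all genes. It was Hoxd9, at 16.0 ± 0.826 CPM in Tet-TKO against 3.05 ± 0.553 CPM in WT host cells, a log2 difference of 2.33 (SE 0.25, adjusted p 0.00299). In the lateral plate 35 and in the ExE mesoderm 7 were tested, and 0 were called in either, beside 0.518% and 0.381% of all genes. Over all cells 2 of 40 were called, beside 2.64% of all genes. Foxf2, the closest relative of Foxf1, read 7.40 ± 0.320 CPM in Tet-TKO against 1.98 ± 0.193 CPM in WT host cells, a log2 difference of 1.82 (SE 0.16, adjusted p 0.00192). Fendrr, beside Foxf1, read 8.49 ± 1.26 and 3.16 ± 0.187 CPM, a log2 difference of 1.33 (SE 0.14, adjusted p 0.00362). Both differences were measured over libraries of unequal makeup.

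Reads of near-identical genes can be misassigned, and Spin2c has close paralogs on the X chromosome. Spin2d, Spin2e, Spin2f and Spin2g were at 0 UMIs in the allantois class. Whether reads of theirs were counted as Spin2c or dropped was not tested. The more distant Spin1 and Spin4 were the 2 members of the Spindlin family list that passed the filter. Spin1 read 47.7 ± 5.06 CPM in Tet-TKO and 39.9 ± 1.27 CPM in WT host allantois, and Spin4 4.46 ± 0.334 and 3.24 ± 0.480 CPM, and neither was called. These 2 are named after their values were seen.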

How the data were processed

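Droplet libraries of 10x Genomics 3' v3 chemistry were analysed from 4 Tet-TKO and 2 WT host samples at E8.5 and 1 of each at E7.5, grouped by the genotype and title labels. The deposited matrices hold whole-number UMI counts, a row per gene and a column per cell: the authors aligned the reads with Cell Ranger to the mm10 genome with the tdTomato sequence added and kept the barcodes called as cells, without normalisation. Here, cells were kept from 1500 UMIs up, where mitochondrial genes took no more than 30% and ribosomal genes no more than 35% of them. They were clustered with scanpy 1.11.5 and leidenalg 0.10.2, each stage apart: 2500 variable genes without the 6 genes, the 44 listed companions, Xist or Y-linked genes, 50 principal components, 3 rounds of correction by mutual nearest neighbours, a graph of 40 neighbours and resolution 2. These settings were chosen after seeing how cells defined by markers mixed between genotypes under others. A cluster took a class name when at least 3 markers were raised by a log2 fold of 1 and its list led the next by 0.2. Doublets were scored but kept in the main result. No deposited annotation of cells was used, so class names may differ from those of the study.

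Counts were summed per class and library over at least 10 cells. Genotypes were compared with edgeR 4.0.16 (R 4.3.3): TMM scaling, filterByExpr, a quasi-likelihood fit of each class alone, Benjamini-Hochberg adjustment over all genes of the class, and a call at an adjusted p of at most 0.01 and an absolute log2 fold of at least 1. The test and thresholds are those of the study's methods. The sums per library are not, since the study did not test on summed counts. The difference between classes was tested as an interaction with library as a block. DESeq2 1.42.0, other scaling, filters, clusterings, doublet and ambient settings and left-out libraries were alternatives. The fits were also run on simulated sums that held no difference in cluster makeup between genotypes, so that run says nothing about its effect. Poisson intervals and shares of cells (exact binomial, 95%) cover counting error only. The genes named are the 6, the 3 most similar genes of each and the companions called, with Itga4, Spin1 and Spin4 added after their values were seen. The 6 genes, the companion and marker lists and the tests were chosen with earlier results of these data known. Gene coordinates are from GENCODE M21 on GRCm38. Promoters are from RefSeq on GRCm38.p6.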

Additional observations from a re-analysis of the deposited data

Results flagged for a closer look

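The genotype difference of Pitx1 differed between 2 classes, by 1.22 log2 units between mesenchyme and allantois (edgeR interaction test, adjusted p 0.000188). Pitx1 was higher in 4 of 4 Tet-TKO libraries in the one and lower in 4 of 4 in the other, each against 2 WT host libraries. This difference was called in 15 of 18 alternatives, the lowest value being 0.50. It was not called within the clusters with most WT host cells, without correction between libraries, or with all variable genes. The genotype difference of Foxf1 differed by 1.32 between ExE mesoderm and allantois (adjusted p 0.00570), from the class of few UMIs described above. Pitx1 in the mesenchyme stood at opposite sides at the 2 stages, with a log2 ratio of Tet-TKO to WT host of -0.53 at E7.5, from 1 library of each, and every Tet-TKO library above the WT host libraries at E8.5. The difference between stages was not tested, and the mesenchyme classes of the 2 stages differed in Postn and Col3a1 as given above. Of 29 checks for a library far from the other 3 Tet-TKO libraries 0 were past Dixon's critical value, where chance gives about 1 in 20.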

How the results depend on the processing

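Of 463 values of log2 differences under the alternatives, over 26 pairs of gene and comparison, 410 kept their direction and side of the threshold, 14 fell below it, 24 passed it and 15 changed sign. The count of the 6 genes called in the allantois rose from 0 to 1 with DESeq2, without the filter on low counts and with libraries left out in turn (range 0 to 1), in the mesenchyme to 1 with DESeq2, without the filter, with cells whose tdTomato matched the sort, without correction between libraries, with all variable genes, without doublets and with libraries left out (range 0 to 1) and to 2, Pitx1 and Vcam1, at resolution 1. In the lateral plate it rose to 1 with DESeq2 and without the filter, and over all cells to 1 with DESeq2. Counts with the replicate number as a block are given below. The Pitx1 difference between mesenchyme and allantois was called in every fit that kept the classes as they were, and was not called without correction (0.55, on the log2 scale), where Vcam1 was called instead (-3.58), or with all variable genes or within the clusters holding most WT host cells, where 0 of the 6 genes were called. All values within clusters, and for the differences between classes also the other clusterings, the removal of doublets and the subtraction of ambient counts, were alternatives chosen after seeing the data. The Foxf1 difference between ExE mesoderm and allantois was lost, giving 0 calls, with DESeq2 size factors, without the filter, with thinned sums, at resolution 1, with all variable genes, without doublets and within the cluster (range 0 to 1 with libraries left out). At resolution 1, with all variable genes and without doublets, no cluster took the name and an unnamed one stood in. Leaving out 1 library moved 13 of 26 log2 differences by over 1.5 times. The cause of these changes was not tested.

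Values that changed sign were, in the allantois, Pitx1 (0.047), Foxf1 (0.14), Vcam1 (2.13) and Spin2c (-0.12) without correction between libraries, Pitx1 (0.043) and Vcam1 (1.35) with all variable genes, and Foxf1 (0.16) and Plac1 (0.42) within cluster 0. In the lateral plate Foxf1 turned to -0.16 at resolution 1 and to -0.16 within the cluster. Between classes, Vcam1 in mesenchyme against allantois ranged from -0.48 to 0.044 with libraries left out and from -3.58 over all alternatives, Foxf1 in lateral plate against allantois turned to -0.21 within the clusters, and Vcam1 there to 0.51 at resolution 1 and 0.062 within the clusters. Thinned to 5000 UMIs, the mean share of allantois cells with a UMI over the 6 libraries was 56.1% for Tbx4, 78.6% for Pitx1, 55.3% for Foxf1, 10.6% for Vcam1, 58.4% for Plac1 and 88.0% for Spin2c.

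In the labels, libraries of the same number have only that number in common. The study compared cell type proportions of each Tet-TKO sample with those of its matching WT host. Which libraries match is not in the labels, so the pairing is unknown. Deviations of libraries of the same number from the group means correlated at 0.171 in the allantois, 0.176 in the mesenchyme, 0.104 in the ExE mesoderm, 0.141 in the lateral plate and 0.328 over all cells, over 2 pairs. With the replicate number as a block, on 2 libraries of each genotype, 1 of the 6 genes (Vcam1) was called in each of the allantois, mesenchyme and lateral plate, beside 606 of 13734, 570 of 11688 and 266 of 10777 genes, and 5 over all cells (Tbx4 1.03, Pitx1 1.12, Foxf1 1.28, Plac1 1.32 and Spin2c 1.57), beside 1716 of 20238 genes, while Plac1 in the allantois turned to 0.021.

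The number of all genes called moved more than the members. In the allantois it was 88, against 236 with DESeq2, 478 without the filter, 606 with the block, 5 with all variable genes, 3 without correction, 43 without Tet-TKO library 3 and 11 and 6 without WT host library 1 or 2. In the mesenchyme it was 111, against 294, 449 and 570 in the first 3 of these, 292 without correction, 168 without doublets, 173 within the cluster, 45 without Tet-TKO library 3 and 13 and 4 without a WT host library. In the lateral plate 62 became 153, 372 and 266 in those 3, 40 within the cluster and 10 and 6 without a WT host library. Over all cells 556 became 1442, 941 and 1716 in those 3, 111 to 235 with libraries left out and 0 with like libraries summed. ExE mesoderm and lateral plate gave no value without correction, because a genotype had too few cells there. All comparisons rested on 2 WT host libraries, and the ExE mesoderm on 20 and 46 WT host cells. With sums thinned to the smallest, 87 genes were called in the allantois and 148 in the mesenchyme.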

Other observations

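The clusters of the allantois class differed more in Vcam1 than in Tbx4. In WT host cells Vcam1 was 58.4 CPM in cluster 0 and 0.938 CPM in cluster 6, while Tbx4, at 219 and 196 CPM, differed less between these 2 clusters. In Tet-TKO cells the same 2 clusters held Vcam1 at 51.2 and 5.597 CPM and Tbx4 at 174 and 169 CPM. Cluster 28 lay between them for Vcam1, at 27.0 CPM in Tet-TKO cells, against 18.4 CPM, from 4 UMIs, in 17 WT host cells. These are pooled values with no test.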
